A study of Rattus norvegicus with 18 samples.

Results

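Protein synthesis on cytosolic ribosomes is started by the eukaryotic initiation factors, which carry the initiator tRNA, the mRNA cap and the small ribosomal subunit to the start codon, and is continued by the elongation factors eEF1 and eEF2, which bring in each charged tRNA and move the ribosome along the mRNA. In stressed cells kinases phosphorylate the alpha subunit of eIF2, which slows initiation in general, while signalling through mTOR frees the cap-binding protein eIF4E from its inhibitors. The question was how transcripts of these factors behaved in the proximal stump of a cut peripheral nerve during the first hours after injury. Every probe whose gene name on the array began with Eif and a digit from 1 to 6 or with Eef and 1 or 2, controls aside, was taken, which gave 98 probes under 60 of the 35287 gene names on the array. For a gene with several probes, as 24 of these had, the probe with the highest mean over the 18 arrays stood for it. The rule used names and not changes. The array has names of its own age, so that Eif3s10 is Eif3a, Eif3s9 is Eif3b, Eif3s6ip is Eif3l, Eif2s3x is Eif2s3 and Eif1ay is Eif1ax in RefSeq, and Eif2c1 to Eif2c4 are the Argonautes Ago1 to Ago4, which bind small RNAs and are no translation factors. Of the 60 names, 59 were found in RefSeq, 46 of them by transcript accession, and Eef1b2l was not.

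Adult male Sprague-Dawley rats without a transgene had a piece of the left sciatic nerve removed under anaesthesia, and total RNA was taken from the proximal stump either at once (0 h) or after 0.5, 1, 3, 6 or 9 h, with the 0 h nerves as the reference for all later time-points. Each time-point was measured on 3 one-colour Agilent arrays, 18 in all. The sources do not say whether an array held RNA of 1 rat or of a pool, so that P-values measure only the spread between arrays. Values are log2 normalized signals, meaning the log2 processed signal of a probe minus the 75th percentile of its array, and a log2 change of 1 is a doubling. The level of 1 probe is not compared with that of another, since probes bind with different strength. A change was called where the P-value of limma's moderated test lay under 0.01 unadjusted and under 0.05 after Benjamini-Hochberg adjustment over all 32109 tested probes.

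Depth on arrays is signal over background. Between 65.9% and 93.5% of spots lay well above background, the median signal of an array ran from 145.7 to 263.6, and no spot was saturated. All 13 Schwann cell markers on the array were well above background on all 18 arrays, so the tissue held the cells its label implies. The scanner ran on 3 days, with the 0 h and 0.5 h groups on day 1, array 3 of 9 h on day 3 and everything else on day 2. Time and scan day therefore cannot be told apart when any group from 1 h on is set against 0 h, while 0.5 h against 0 h and 6 h against 1 h each lie within 1 day. No slide held arrays of more than 1 time-point, and 0 h, 1 h and 6 h lay on a slide of their own each, so slide and time cannot be told apart in any comparison. Array 1 of 0 h stood apart for Eef1a2, and array 3 of 1 h lay more than 0.5 from the mean of the other arrays of its group for 10 of 59 members, where the other arrays had 0 to 5. Over all gene names array 1 of 6 h lay farthest from its group, with a root mean square of 0.73 in log2. Each array was left out in turn.

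Nearly all members gave a clear signal. Of the 60, the Argonautes counted with the factors here and in what follows, 57 (95%) were well above background on all 18 arrays, against 60.5% of all gene names. Of the other 3, Eif5a2 was so on 16 arrays, the Argonaute gene Eif2c3 on 10 and Eif2c4 on 1, and only Eif2c4 had too little signal to be tested, which left 59. Over the 6 time-points 31 of the 59 were called in the moderated F-test, where 34.8% of the 27200 gene names tested were. The members were bright, and among the 9067 brightest gene names 46.9% were called. Mean levels were highest at 9 h for 27 of the 59 and at 6 h for 13, and lowest at 0.5 h for 21 and at 1 h for 18. The same count was not made for all gene names, so these have no baseline. No Argonaute was called in any comparison, so that the counts of calls are the same over the 56 tested without them.

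The sequences of 4 probes are shown for the reader to place, since probes were not aligned to transcripts here. These are the alpha subunit of eIF2, the kinase Eif2ak3 that acts on it, Eef1e1 as the factor tied to the tRNA synthetases, and the dimmer of 2 probes for Eif1, which moved against the brighter one. All are of 60 bases, 5′ to 3′, and each reads through without a stop codon in at least 1 frame.
Eif2s1: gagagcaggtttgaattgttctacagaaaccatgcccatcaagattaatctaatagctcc
Eif2ak3: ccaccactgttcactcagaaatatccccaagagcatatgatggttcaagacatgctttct
Eef1e1: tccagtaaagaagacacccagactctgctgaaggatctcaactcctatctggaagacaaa
Eif1, dimmer probe: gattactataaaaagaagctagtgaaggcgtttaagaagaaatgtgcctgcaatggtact
On the rn4 build of the files, the Eif2s1 probe covers chr6:101516066-101518066 and the Eif2ak3 probe chr4:104075118-104077133, spans of 2001 and 2016 bases for 60 bases of probe, so both skip genomic sequence in between. The Eef1e1 probe covers chr17:32220067-32221025, a span of 959 bases, and the Eif1 probe chr10:89256536-89256709, a span of 174 bases. No pair of the 60 chosen probes matched at more than 30 of 60 bases without gaps, and the median over 1770 pairs was 21. The dimmer Eif1 probe was not among the 60.

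Little was called in the first hour. At 0.5 h, within 1 scan day, 2 of 59 were called and both were lower, where 6.09% of gene names were called, 4.37% higher and 1.72% lower. The first was Eef1g, a subunit of the eEF1 complex that recharges eEF1A, with 7.10, 7.15 and 7.06 at 0 h and 6.70, 6.80 and 6.70 at 0.5 h. The other was Eif3i, a subunit of the eIF3 scaffold, with a log2 change of -0.45 (SE 0.14). The groups of Eef1g did not overlap, and its change was -0.37 (SE 0.08, adjusted P-value 0.0163). Neither call held under normexp background correction, quantile normalization or the deposited matrix. In that order Eif3i was at -0.44, -0.36 and -0.34 and Eef1g at -0.35, -0.19 and -0.15. In contrast, 7 were called with a shift to the median of each array and 5 with a trend and robust prior, all lower, and 10 with array weights, 9 of them lower. The count also rested on single arrays, being 0 without array 2 of 0 h or without array 1 or 3 of 0.5 h, and 1 without array 3 of 0 h or array 2 of 0.5 h. At 1 h, 1 of 59 was called (5.72% of gene names, with 3.74% higher and 1.98% lower), namely the cap-binding relative Eif4e3, at -0.41, and it was not called without array 3 of 0 h or array 1 of 1 h, with normexp (-0.48), or in a fit of the arrays of 0 h and 1 h alone. Log2 changes were below 0 for 44 of the 59 at each of these time-points, as they were for 13479 and 12808 of the 27200 gene names and for 5884 and 5428 of the 9067 brightest, with medians of -0.10 and -0.06 where all gene names had 0.00 and 0.02. Among the 9067 brightest gene names the medians were -0.07 and -0.05. With quantile normalization the medians of the factors, -0.05 and -0.03, equalled those of all gene names.

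At 3 h, 7 were called, 6 higher and 1 lower, where 14% of gene names were called, 7.55% higher and 6.45% lower. Those higher were Eif1a, Eif2s1, Eif2b3, Eif4a1, Eif6 and Eef1e1, and Eif4e3 was lower. This count too depended on single arrays, being 3, 2 and 2 without array 1, 2 and 3 of 0 h and 2 and 1 without array 2 and 3 of 3 h. All 6 of the higher calls were lost with a shift to the median of each array and with normexp. Main, median-shift and normexp changes were 0.77, 0.66 and 0.59 for Eif1a and 0.51, 0.40 and 0.30 for Eef1e1. They were 0.35, 0.24 and 0.26 for Eif2s1 and 0.46, 0.35 and 0.17 for Eif4a1. For Eif6 they were 0.40, 0.29 and 0.11, and for Eif2b3 0.31, 0.20 and 0.10. At 6 h, 22 were called, 17 higher and 5 lower, where 25% of gene names were called, 12.3% higher and 12.7% lower. At 9 h the counts were 25 called, 22 higher and 3 lower, where 31.3% were called, 16% higher and 15.2% lower. Among the 9067 brightest gene names 13.9% were higher and 26% lower at 9 h. Within the second scan day, the 6 h arrays set against those of 1 h gave 26 called, 21 higher and 5 lower. Of gene names 24.1% were called there, 11.4% higher and 12.7% lower. Both comparisons of 6 h use the same 6 h arrays and are not independent. Median changes of the 59 were 0.05 at 3 h, 0.09 at 6 h, 0.18 at 9 h and 0.24 for 6 h against 1 h, beside -0.05 for all gene names in the last comparison and 0.01 to 0.02 in the others. Without array 3 of 1 h the median for 6 h against 1 h was 0.18.

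Changes were small. By the brightest probes, Eif1a was the only factor called with a change of 2-fold or more, at 6 h against both 0 h and 1 h. The split into higher and lower depends on scaling. Shares of all gene names called were not counted on the other scales, so the splits below stand without that baseline. With a shift to the median of each array, the median change of all gene names against 0 h lay between -0.17 and -0.10 (main values 0.00 to 0.02), and on that scale the 6 h arrays had 7 higher and 6 lower, those of 9 h had 10 and 6, and 6 h against 1 h had 15 and 0. With quantile normalization the splits were 22 and 2, 27 and 1, and 24 and 3, and with normexp background correction 7 and 0, 9 and 1, and 14 and 0. When the fit held day 2 alone (11 arrays, from 1 h to 9 h), 19 of the 59 were called over time, where 19.5% of gene names were.

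**Figure D1:**
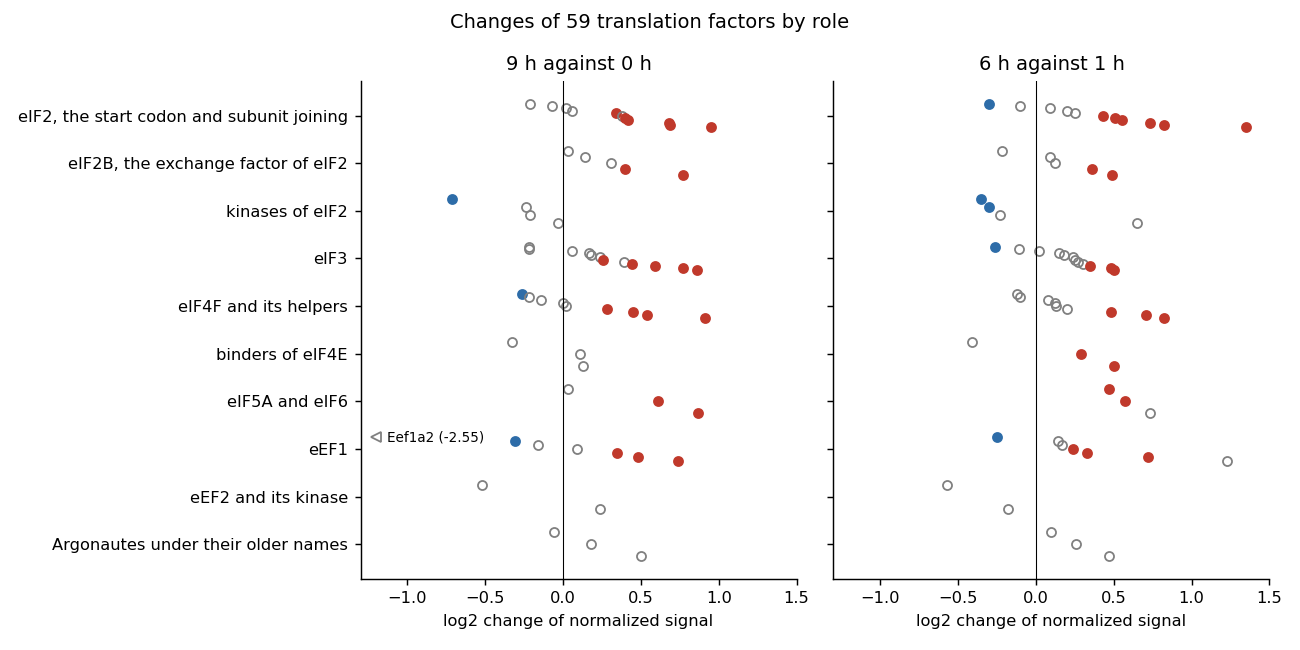
Log2 change of normalized signal (x axis) for the 59 tested factors, 1 point each, in rows by role, at 9 h against 0 h (left) and 6 h against 1 h (right). Red points were called higher, blue points called lower and open points not called, and the arrow marks Eef1a2, at -2.55 beyond the axis and not called. At 9 h the red points number 22 and the blue points 3.

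Cell markers moved over the same hours, in which 16% of all gene names were higher and 15.2% lower at 9 h, and 12.7% lower at 6 h against 1 h. In whole tissue, fewer cells of a type and less RNA per cell cannot be told apart. Of 10 neutrophil markers tested 8 were higher at 9 h, and their summed linear level was 2.58 to 3.80 on the 0 h arrays and 22.5 to 29.1 on the 9 h arrays, with none of them below background on every array. Schwann cell markers were lower at 9 h for 5 of 13, with sums of 979 to 1160 at 0 h and 779 to 883 at 9 h, and 7 of 13 were lower at 6 h against 1 h. Fibroblast markers were lower for 6 of 8, from 1420 to 1500 down to 980 to 1040, and endothelial markers for 3 of 10, with 1 higher (Flt1), from 62.5 to 66.9 down to 46.5 to 48.7. The macrophage sum went from 214 to 250 on the 0 h arrays to 261 to 293 on those of 9 h, with 3 of 11 called higher and 1 lower. The part of these cells in the changes of the translation factors was not tested.

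The factors that choose the start codon and carry the initiator tRNA numbered 11, of which 6 were higher and 0 lower at 9 h, where 16% of gene names were higher. Eif1a, which helps the small subunit scan for the start codon, had 1.76, 1.65 and 1.67 at 0 h and 2.86, 2.87 and 2.64 at 6 h. The groups lay apart, with a log2 change of 1.10 (SE 0.22, adjusted P-value 0.00261). Of the 1 h arrays, 1.66 and 1.75 resembled 0 h and array 3 stood at 0.90. At 3 h the arrays read 2.37, 2.13 and 2.88, and at 9 h 2.50, 2.48 and 2.96. Eif5, which makes eIF2 hydrolyse its GTP at the start codon, was 2.16, 2.13 and 2.35 at 0 h and 2.99, 3.04 and 2.77 at 6 h. The groups were apart, with a change of 0.72 (SE 0.13, adjusted P-value 0.00157), and array 3 of 1 h again lay low at 1.74 beside 2.33 and 2.27. A dimmer probe of Eif5 changed by 0.27 at 6 h and was not called.

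Eif2s1, the alpha subunit of eIF2 on which the stress kinases act, read 0.84, 0.90 and 0.74 at 0 h. It read 0.62, 0.69 and 0.64 at 0.5 h and 0.58, 0.74 and 0.56 at 1 h. All later arrays lay above these, with 1.04, 1.14 and 1.34 (3 h), 1.36, 1.39 and 1.32 (6 h), then 1.46, 1.35 and 1.74 (9 h). The change at 9 h was 0.69 (SE 0.11, adjusted P-value 0.000289), and at 6 h against 1 h it was 0.73 (SE 0.11, adjusted P-value 0.000299). By their brightest probes the other subunits of eIF2 moved less. Eif2s2, the beta subunit, was called at 9 h, at 0.40, and in no other comparison by its brightest probe, while its other probes gave 0.31, not called, and 0.92, called, at 9 h. Eif2s3x, the gamma subunit, was called at 6 h against 1 h only, at 0.55. Eif1ad and Eif5b, which joins the large subunit, were called higher at 6 h and 9 h, with 0.42 and 0.34 at 9 h. The 9 h call was lost in 6 of 32 alternatives for Eif5b, with 0.16 under the median shift, in 5 of 32 for Eif2s2 and in 3 of 32 for Eif1ad. Single arrays that ended it were array 2 of 0 h (0.28) and array 2 of 9 h (0.30) for Eif5b, and array 2 of 0 h (0.38) and array 3 of 9 h (0.34) for Eif2s2. Eif2a, Eif1b and Eif1ay were not called at any time, with changes against 0 h between -0.27 and 0.07.

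Eif1, a partner of Eif1a in start codon choice, gave opposite answers from its 2 probes. The brighter read 7.58, 7.64 and 7.67 at 0 h and 7.22, 7.41 and 7.33 at 6 h, a change of -0.31 (SE 0.07, adjusted P-value 0.00683). With quantile normalization that change was 0.02 and in the deposited matrix 0.03, so that its direction is not settled. The dimmer probe, shown above, read 1.07, 1.06 and 1.42 at 0 h and 2.14, 2.46 and 2.21 at 6 h, a change of 1.08 that was called higher. Eif1 was the only one of the 24 genes with several probes to be called both ways in a comparison. The brighter probe covers chr10:89257177-89257236, beyond the dimmer one on the same chromosome.

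Of the exchange factor eIF2B, whose 5 subunits reload eIF2 with GTP, 2 were called higher at 9 h and none lower, where 16% of gene names were higher and 15.2% lower. Eif2b3, the gamma subunit, read 1.26, 1.06 and 1.28 at 0 h and 1.92, 1.91 and 2.09 at 9 h. The arrays of 3 h (1.49 to 1.55) and 6 h (1.77 to 1.81) fell in between without overlap. The change at 9 h was 0.77 (SE 0.09, adjusted P-value 3.87e-05), and its second probe gave 0.76. Eif2b1, the alpha subunit, was called at 6 h and 9 h, with 0.30 and 0.40. Its 6 h call was lost with normexp (0.30) and the median shift (0.15), and its 9 h call in 4 of 32 alternatives. Eif2b5, the catalytic epsilon subunit, read 0.83, 0.78 and 0.85 at 0 h and 1.16, 1.19 and 1.02 at 9 h. Its groups were apart, yet the change of 0.31 (SE 0.11, adjusted P-value 0.0389) missed the unadjusted limit and was not called. It was called in 7 of 32 alternatives, among them adjusted P-values alone, which drops that limit. Eif2b2 and Eif2b4 changed by 0.03 and 0.14 at 9 h and were not called.

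None of the 4 kinases of eIF2 was called higher at any time, where 12.3% of gene names were higher at 6 h and 16% at 9 h, and 2 were lower at 6 h and 1 at 9 h, where 12.7% and 15.2% were lower. Eif2ak3, known as PERK and activated by unfolded proteins in the endoplasmic reticulum, read -0.42, -0.14 and -0.19 at 0 h, -0.58, -0.55 and -0.70 at 6 h, and between -1.0 and -0.89 at 9 h. All arrays of 6 h and 9 h lay below all of 0 h, and those of 9 h below all of 6 h. Its change was -0.36 (SE 0.09, adjusted P-value 0.00871) at 6 h and -0.71 (SE 0.09, adjusted P-value 5.85e-05) at 9 h, and -0.30 within the second scan day at 6 h against 1 h. The 9 h call held under normexp, quantile normalization, the median shift and the deposited matrix, but that of 6 h was lost with normexp (-0.33) and that of 6 h against 1 h with normexp (-0.35) and the median shift (-0.28). Eif2ak1, the heme-regulated kinase, read 3.03, 3.10 and 3.05 at 0 h and 2.77, 2.90 and 2.69 at 6 h, a change of -0.27 (SE 0.08, adjusted P-value 0.0259). That call was lost without array 2 or 3 of 0 h or array 1 or 3 of 6 h, with changes of -0.23 to -0.28, and in 10 of 32 alternatives in all, normexp, quantile normalization and the deposited matrix included. At 6 h against 1 h the kinase was called at -0.35, but not with normexp (-0.30) or the median shift (-0.34). Eif2ak2, known as PKR and activated by double-stranded RNA, ranged from 2.25 to 2.95 at 0 h, 1.90 to 2.10 at 1 h and 2.04 to 3.09 at 9 h. Its arrays of 0 h and 9 h overlapped and no comparison was called. Eif2ak4, known as GCN2 and activated by uncharged tRNA, read 1.66, 2.05 and 1.86 at 0 h and 1.64, 1.65 and 1.56 at 9 h, a change of -0.24 that was not called (SE 0.11, adjusted P-value 0.105), though without array 1 of 0 h it was, at -0.34, and without array 2 of 0 h it was -0.14.

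**Figure D2:**
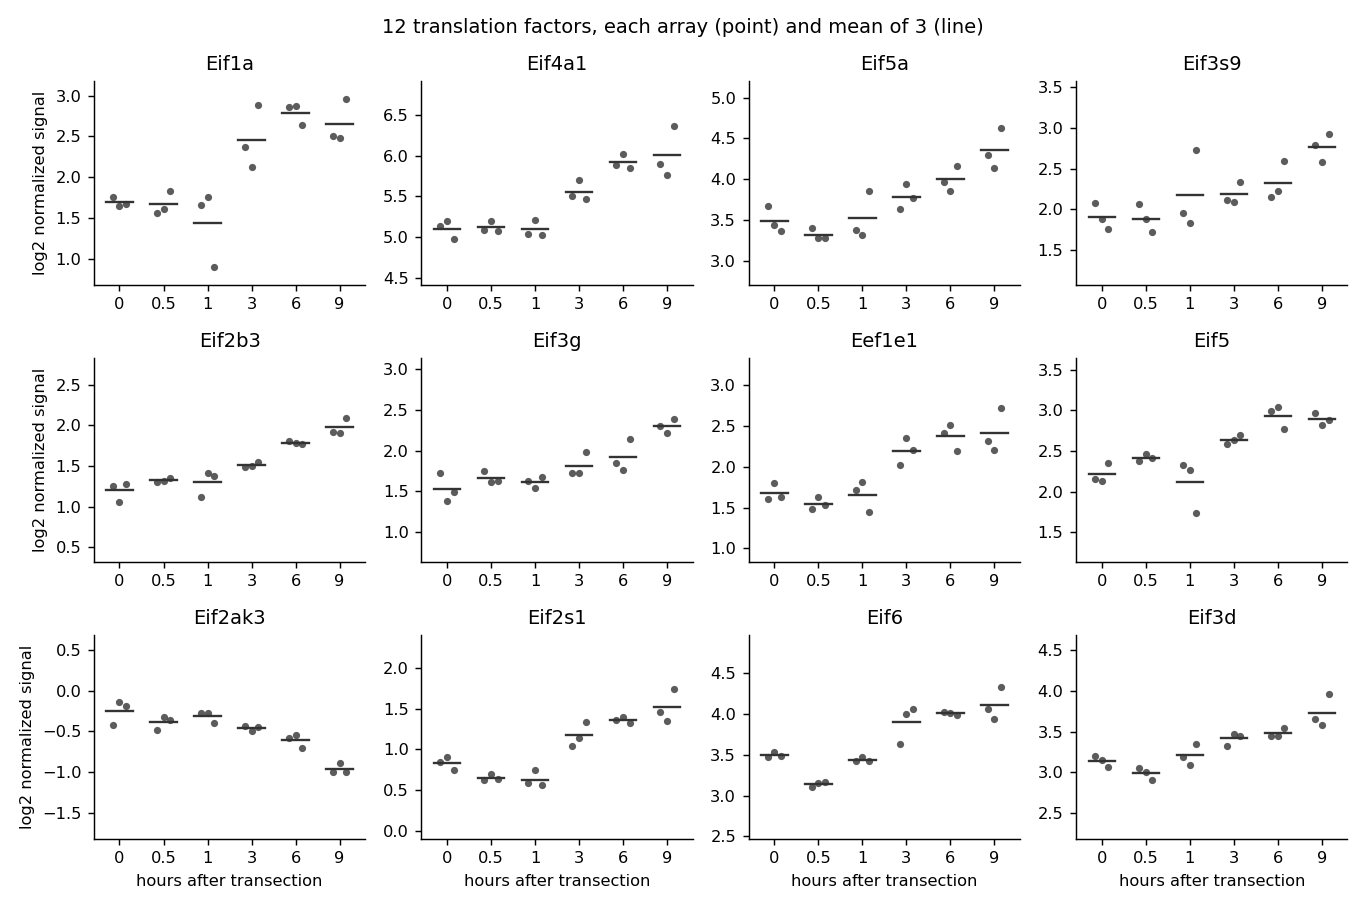
Log2 normalized signal (y axis, a window of 2.5 log2 units in each panel) against hours after transection for the 12 factors with the largest changes among those called over time, with a point per array and a line for the mean of 3. Eif2ak3 is the only one of the 12 that falls, from a mean of -0.25 at 0 h to -0.97 at 9 h, and array 3 of 1 h lies apart for Eif1a, Eif3s9, Eif5 and Eif5a.

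Of 12 subunits of eIF3, the scaffold that holds the small subunit and the mRNA together, 5 were higher and 0 lower at 9 h, beside the same 16% and 15.2%. Eif3s9, the subunit Eif3b, read 2.08, 1.88 and 1.76 at 0 h and 2.79, 2.58 and 2.93 at 9 h. The groups did not overlap, with a change of 0.86 (SE 0.20, adjusted P-value 0.00565), but array 3 of 1 h, at 2.73 beside 1.95 and 1.83, lay as high as the 9 h arrays. Eif3g read 1.73, 1.38 and 1.49 at 0 h and 2.30, 2.21 and 2.39 at 9 h, a change of 0.77 (SE 0.12, adjusted P-value 0.000286). Eif3d, a subunit that can bind the cap, read 3.20, 3.15 and 3.07 at 0 h and 3.66, 3.58 and 3.96 at 9 h, a change of 0.59 (SE 0.10, adjusted P-value 0.000709), and its second probe gave 0.71. Both Eif3g and Eif3d were also called at 6 h, at 0.38 and 0.34, and neither at 6 h against 1 h. Eif3c and Eif3j were called at 6 h and 9 h and at 6 h against 1 h, with 0.26 and 0.44 at 9 h. The 9 h call of Eif3c was lost in 6 of 32 alternatives, among them the median shift (0.08), normexp (0.34) and the fits without array 3 of 9 h (0.18) or array 3 of 0 h (0.24). The largest subunit, Eif3s10 or Eif3a, ranged from 4.08 to 4.22 at 0 h and 4.28 to 4.54 at 9 h, 0.24 higher but not called (SE 0.10, adjusted P-value 0.0661), while its second probe was called at 6 h, at 0.67. Beside Eif3i at 0.5 h, Eif3k was called lower, at 6 h (-0.33) and at 6 h against 1 h (-0.26). The 6 h call of Eif3k was lost with normexp (-0.39). Changes at 9 h ran from -0.22 for Eif3k and Eif3f, neither called there, to 0.86, with 10 of 12 above 0.

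The cap-binding complex eIF4F, its helpers and relatives of its subunits made a group of 9. Of these, 4 were higher and 1 lower at 9 h, the latter a share (11.1%) not above the 15.2% of all gene names. Of all gene names 16% were higher. Eif4a1, the RNA helicase that unwinds the mRNA leader, read 5.13, 5.19 and 4.97 (0 h), 5.04, 5.21 and 5.03 (1 h), 5.50, 5.70 and 5.47 (3 h), 5.88, 6.02 and 5.85 (6 h), then 5.89, 5.76 and 6.36 (9 h). Every array from 3 h on lay above every array of 0 h, 0.5 h and 1 h, and the change at 9 h was 0.91 (SE 0.13, adjusted P-value 0.00019). Its 4 dimmer probes changed more, by 1.48 to 1.56 at 9 h, and all 5 were called at 6 h, at 9 h and at 6 h against 1 h. The related helicase Eif4a2 changed by -0.22 at 9 h and was not called at any time. Eif4e, which binds the cap, read 2.69, 2.54 and 2.57 (0 h), 3.20, 3.24 and 2.91 (6 h), then 3.13, 3.04 and 3.23 (9 h). Arrays of both later times lay above those of 0 h, with a change of 0.54 at 9 h (SE 0.11, adjusted P-value 0.00178) that was 0.36 and not called with a shift to the median. Its second probe gave 0.44, called as well. Of the relatives of Eif4e, Eif4e2 was 0.45 higher at 9 h and Eif4e3 0.26 lower at 9 h, both called. Without array 3 of 9 h Eif4e2 changed by 0.29 and without array 3 of 0 h by 0.37, not called in either case, and Eif4e3 at 9 h was not called with normexp (-0.15), quantile normalization (-0.22) or the deposited matrix (-0.22). Eif4h, a helper of the helicase, was called at 0.28 at 9 h and not under 10 of its 32 alternatives, and Eif4b and Eif4g3 were not called. Eif4g2, a relative of the scaffold eIF4G, was not called by its brightest probe, at 0.09 at 6 h, but 3 of its 4 other probes were called there, at 0.34, 0.44 and 0.60. No probe carried the name Eif4g1.

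**Figure D3:**
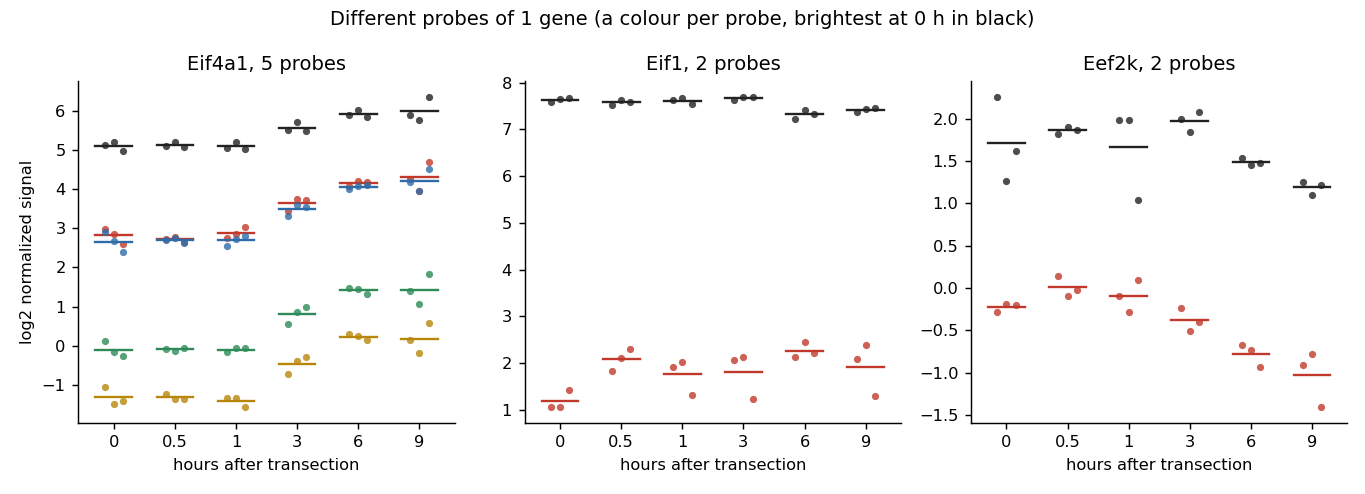
Log2 normalized signal (y axis) against hours after transection for each probe of Eif4a1 (5 probes), Eif1 (2) and Eef2k (2), with a colour per probe, a point per array and a line for the mean of 3. The probes of Eif4a1 rise together from 3 h, the dimmer probe of Eif1 rises from a mean of 1.19 at 0 h to 2.08 at 0.5 h and 2.27 at 6 h while the brighter goes from 7.63 to 7.58 and 7.32, and those of Eef2k both end below their 0 h mean.

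Of the 3 proteins that bind eIF4E and hold it away from the complex, none was called against 0 h (16% of gene names were higher at 9 h) and 2 were called higher at 6 h against 1 h (11.4% of gene names). Eif4ebp1 ranged from 4.52 to 4.80 at 0 h, 4.44 to 4.57 at 1 h and 4.75 to 4.79 at 9 h. It was called at 6 h against 1 h only, at 0.29 (SE 0.08, adjusted P-value 0.0122), and its second probe was called there too. With quantile normalization and in the deposited matrix it was also called higher against 0 h, by 0.25 and 0.26 at 6 h and by 0.24 each at 9 h, where the main changes were 0.12 and 0.11. With the median shift these turned to -0.03 and -0.07, and the call at 6 h against 1 h was lost on that scale (0.30) and with normexp (0.55). Eif4ebp2 read 1.29, 1.65 and 1.72 at 0 h and 1.09, 1.12 and 1.01 at 3 h, where its change of -0.48 was not called (SE 0.21, adjusted P-value 0.151) although the groups lay apart. At 6 h its arrays read 1.54, 1.62 and 0.59, and without the last of these arrays in the fit the change at 3 h was called (adjusted P-value 0.0221). Eif4enif1, which carries eIF4E into the nucleus, was called at 6 h against 1 h, at 0.50.

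Eif5a, which helps ribosomes past difficult peptide bonds and carries the amino acid hypusine, read 3.67, 3.44 and 3.36 (0 h), 3.97, 3.86 and 4.16 (6 h), then 4.30, 4.14 and 4.63 (9 h). Both later groups lay above 0 h, with a change of 0.87 at 9 h (SE 0.16, adjusted P-value 0.00107), and array 3 of 1 h, at 3.86 beside 3.38 and 3.32, lay above 0 h as well. Its relative Eif5a2 was not called. Eif6, which keeps the large ribosomal subunit from joining too early, read 3.47, 3.54 and 3.49 at 0 h, 3.11, 3.15 and 3.17 at 0.5 h, 3.63 to 4.07 at 3 h, 3.99 to 4.03 at 6 h and 4.07, 3.94 and 4.33 at 9 h. All 0.5 h arrays lay below and all arrays from 3 h on above those of 0 h. The change was -0.36 at 0.5 h, not called (SE 0.11, adjusted P-value 0.0794), and 0.61 at 9 h (SE 0.11, adjusted P-value 0.00112).

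Of the 7 eEF1 genes, 3 were higher at 9 h, where 16% of gene names were, and 1 lower, a share (14.3%) near the 15.2% of all gene names. Eef1e1, a small protein of the complex of tRNA synthetases, read 1.61, 1.80 and 1.63 (0 h), 2.02, 2.35 and 2.21 (3 h), 2.42, 2.51 and 2.20 (6 h), then 2.32, 2.21 and 2.72 (9 h). Each later group lay above 0 h without overlap, with a change of 0.74 at 9 h (SE 0.14, adjusted P-value 0.00143). The exchange subunit Eef1b2 and the related Eef1b2l were called at 9 h, at 0.48 and 0.35. These calls were lost in 3 of 32 alternatives for Eef1b2 and 4 of 32 for Eef1b2l, with lowest changes of 0.30 and 0.17. Eef1g was lower at 6 h and 9 h too, at -0.31 each, but was not called at either time with normexp, with quantile normalization (-0.06 and -0.08) or in the deposited matrix (-0.04 and -0.06). Its 2 dimmer probes changed by -0.06 and -0.14 at 9 h, not called, and by -0.27 each at 6 h, where 1 was called. Eef1d was called at 6 h against 1 h only. Eef1a1, which delivers charged tRNA to the ribosome and is among the most abundant proteins of a cell, stayed within 6.58 to 7.03 on all 18 arrays and was called in no comparison.

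Eef1a2, the form of eEF1A known from skeletal muscle, neurons and heart, spread more than any other factor. It read 5.10, 0.59 and 0.99 (0 h), 0.75, -0.28 and 0.03 (0.5 h), then -1.55, -1.53 and 0.06 (1 h). Later arrays read -0.89, 2.08 and -1.76 (3 h), 2.70, -2.04 and 0.00 (6 h), then 0.80, -1.89 and 0.13 (9 h). All 1 h arrays lay below those of 0 h, while every other time-point overlapped with 0 h, and the 1 h difference of -3.23 missed the threshold (SE 1.35, adjusted P-value 0.171) and came to -1.79 without array 1 of 0 h. Over the 18 arrays its level followed the median of 13 skeletal muscle genes, with Pearson's r of 0.92 and Spearman's rho of 0.99 as a description, where all points share array and scaling. The summed linear level of those 13 genes was 163 to 2430 on the 0 h arrays, 5.28 to 142 on those of 1 h and 3.45 to 211 on those of 9 h, with 0 of 13 called at any time and 11 of 13 well above background on all arrays. For no other factor did r with the muscle genes exceed 0.53 in size. The part of muscle tissue in the level of Eef1a2 was not tested.

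**Figure D4:**
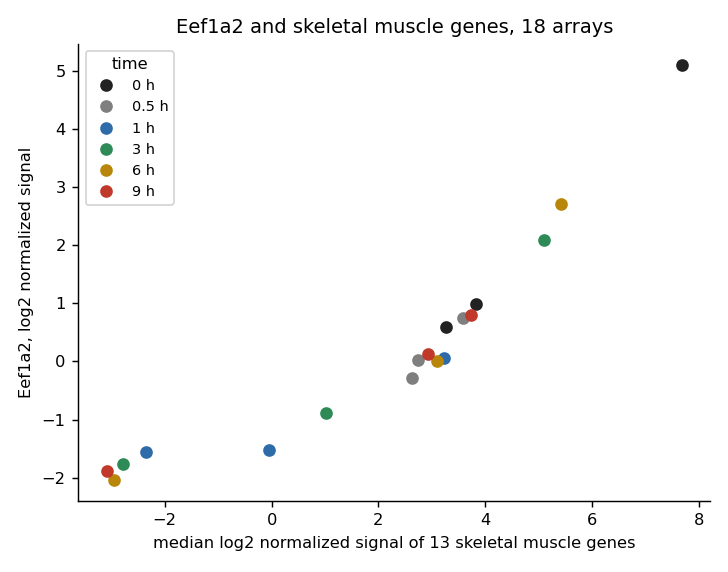
Level of Eef1a2 (y axis) against the median level of 13 skeletal muscle genes (x axis), both as log2 normalized signal, for the 18 arrays coloured by time-point. Arrays of the same time-point lie close together at 0.5 h and farther apart at the others, and array 1 of 0 h lies at the upper end with 5.10 for Eef1a2 and 7.68 for the muscle genes.

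Eef2, which moves the ribosome by a codon, and the kinase Eef2k, which switches it off, were called in no comparison by their brightest probes. Eef2 read 5.34, 5.07 and 5.19 at 0 h and 4.81, 4.76 and 5.25 at 6 h. Array 3 of 1 h stood at 6.15 beside 5.31 and 5.08. Without that array the change of Eef2 at 1 h turned from 0.31 to -0.01. Eef2k read 2.26, 1.26 and 1.62 at 0 h and 1.25, 1.10 and 1.22 at 9 h, so that the 0 h arrays spread more than the times differed, and its change was -0.52 (SE 0.24, adjusted P-value 0.107). Leaving out array 2 of 0 h made it -0.75 and called, and leaving out array 1 of 0 h made it -0.25. The dimmer probe of Eef2k was called at 6 h, at 9 h and at 6 h against 1 h, with -0.81 at 9 h (SE 0.15, adjusted P-value 0.00122). The Argonautes Eif2c1, Eif2c2 and Eif2c3 were not called, and the largest change among them was 0.62 for Eif2c2 at 6 h.

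Genes around these factors were counted from fixed lists, beside shares over all gene names of 16% higher and 15.2% lower at 9 h, 12.3% higher at 6 h and 11.4% higher at 6 h against 1 h. Of 20 cytosolic aminoacyl-tRNA synthetases, which charge tRNAs, 14 were higher and 0 lower at 9 h, 9 higher at 6 h and 10 higher at 6 h against 1 h, again with 0 lower, and the median change at 9 h was 0.51. The largest at 9 h were Vars (1.18), Yars (1.10), Nars (1.08) and Wars (0.85), all called. Among 12 genes of termination, recycling and poly(A) binding, 5 were higher and 1 lower at 9 h, with the release factors Etf1 (0.63) and Gspt1 (0.68) and the recycling factor Abce1 (0.76) higher. Of a pair of related inhibitors of poly(A)-binding protein, Paip2 was lower (-0.64) and Paip2b higher (1.04). Of 7 mitochondrial factors 0 were higher and 1 (14.3%), Mtif2 (-0.45), was lower, a share near that of all gene names. Of 12 genes that signal from mTOR and MNK to eIF4F, 2 (16.7%) were higher at 9 h, again near the share of all gene names, namely Larp1 (1.08) and Frap1 (0.35), which is the mTOR kinase itself, and 0 lower.

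Atf4, a transcription factor whose own mRNA is translated when eIF2 is phosphorylated, and its targets made a list of 17, with 7 higher and 3 lower at 9 h, the latter a share (17.6%) near the 15.2% of all gene names. At 6 h against 1 h, 2 (11.8%) were higher and 3 (17.6%) lower, where 11.4% and 12.7% of all gene names were. The 3 lower were Atf3 (-1.46), Ddit4 (-1.69) and Phgdh (-0.52). The summed linear level of the list was 134 to 156 on the 0 h arrays, 187 to 189 on those of 1 h and 146 to 151 on those of 9 h. At 9 h, Cebpb (1.58), Asns (1.22) and Trib3 (0.92) were higher, as was Ppp1r15a (0.55), which brings a phosphatase to eIF2. Psat1 (-0.71), Vldlr (-0.63) and Phgdh (-0.51) were lower. Atf4 itself changed by 0.13 and Ddit3 by 0.19, and neither was called at 9 h. All gene names had medians of 0.02 at 9 h beside 0.21 for this list, 0.20 for termination, -0.12 for the mitochondrial factors and 0.05 for mTOR and MNK.

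Short motifs were counted at the start sites of the factors. RefSeq gave a window from 250 bases before to 50 after the start (GRCr8) for 52 of the 60. The E-box CACGTG, the letters read by Myc and related factors, is the same on both strands. It was in a window of 10 of the 52 factors (19.2%), against 6.42% of 33469 windows. Factors were counted by gene and the background by window, without a choice of expressed genes, so these shares are unlike measures. The ETS motif CCGGAAGT, on either strand, was also in 10 (19.2%, against 3.81%), TATAAA in 3 (5.77%, against 14.2%), and TGATGCAA, bound by Atf4 with a C/EBP partner, in 1 (1.92%, against 0.795%). A match is a description of letters and no binding site. Of the 21 factors with a window that were called higher at 9 h, 4 held the E-box and 4 the ETS motif. Upstream windows of 60 bases with the E-box in capitals are shown for those 4, since they let the reader set the letters around the motif side by side.
Eif3b: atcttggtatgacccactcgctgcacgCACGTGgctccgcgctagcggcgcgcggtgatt
Eif4e: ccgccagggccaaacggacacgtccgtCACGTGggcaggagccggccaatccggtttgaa
Eif4h: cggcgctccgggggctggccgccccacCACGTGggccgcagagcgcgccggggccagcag
Eif5a: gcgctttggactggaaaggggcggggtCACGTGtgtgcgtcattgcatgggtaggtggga
They lie at chr12:19334793-19334852 (minus strand), chr2:229740646-229740705 (plus), chr12:27719497-27719556 (plus) and chr10:55143395-55143454 (minus) of GRCr8, with the motif beginning 57, 80, 168 and 206 bases before the start. The window of Eif4e held a second E-box, 237 bases before the start.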

How the data were processed

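RNA of proximal sciatic nerve was measured on 18 one-colour Agilent arrays, grouped by the time-points of the sample labels. The authors deposited scanner output of Feature Extraction (version 10.5.1.1 per the file headers), in which the processed signal is a linear intensity with background and spatial trends removed and no normalization between arrays. The authors also deposited a log2 matrix of the same arrays, with the same distribution of values on each and its method not given in the sources used here, which served as an alternative. Control and outlier spots were left out, spots of a probe were averaged, and the 75th percentile of each array was subtracted from its log2 signals. Testing required a probe to exceed background clearly in all 3 arrays of a time-point, at any 1 of the 6. Coordinates are those of the files (rn4).

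All 18 arrays entered 1 limma fit (prior degrees of freedom 1.9), with adjustment over all tested probes. The fit was also run on simulated data with independent errors and changes of at least 2-fold. That run does not bear on smaller changes, slides or scan days. Precision is limited by 3 arrays per time-point. Values per array are given for the 12 factors with the largest change among those called in the F-test and well above background on all arrays, and for regulators named regardless of their change. The members, the lists and the pair 6 h against 1 h were chosen with earlier results of these data known. Alternatives were normexp (offset 50), quantile normalization, a median shift, the deposited matrix, other filters, thresholds and priors, array weights, a replicate or slide block, 1 scan day, 2 time-points alone, any probe of a gene and leaving out each array. One more, without array 1 of 0 h and array 3 of 1 h, was chosen after seeing the data. R 4.3.3, limma 3.58.1, version 1.17.8 of data.table, Python 3.11.15, matplotlib 3.10.9, numpy 2.4.6 and pandas 2.3.3 were used.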

Additional observations from a re-analysis of the deposited data

How the results depend on the processing

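Precision is limited by 3 arrays a time-point and, for Eif5a2, Eif2c3 and Eif2c4, by signal near background. Main counts of factors called were 31 over the 6 time-points and, against 0 h, 2 (0.5 h), 1 (1 h), 7 (3 h), 22 (6 h) and 25 (9 h), with 26 for 6 h against 1 h. In that order, normexp background correction gave 15, then 0, 0, 0, 7 and 10, then 14. Fits with only the arrays of both time-points gave 1, 0, 1, 12 and 16, then 11. A required change of at least 2-fold left 1 over time, then 0, 0, 0, 1 and 0, then 1. The median shift gave 7 (0.5 h), 1 (3 h), 13 (6 h), 16 (9 h) and 15 (6 h against 1 h). Quantile normalization and the deposited matrix each gave 0 (0.5 h), and no filter on dim probes gave 3 (3 h). Array weights gave 10 (0.5 h), 2 (1 h) and 12 (3 h), a trend with a robust prior 5 (0.5 h), and 1 scan day 1 (0.5 h) and 19 over time. Without array 3 of 1 h and array 1 of 0 h, chosen after seeing the data, 4 were called (0.5 h), 32 over time, and the 1 factor called at 1 h was higher instead of lower. Leaving out each array in turn gave 0 to 3 (0.5 h), 0 to 1 (1 h), 1 to 8 (3 h), 15 to 24 (6 h), 22 to 30 (9 h), 20 to 29 (6 h against 1 h) and 26 to 33 over time. Shares of all gene names called were counted only for the main fit and over time within scan day 2. Whether the other counts moved with those of all gene names was therefore not seen. The cause of these differences was not tested.

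Of the 59 factors, 17 (0.5 h), 25 (1 h), 17 (3 h), 17 (6 h), 15 (9 h) and 7 (6 h against 1 h) had a change of opposite sign under at least 1 of 4 other scalings. The median shift moves all changes of a comparison by the same amount, which alone can turn small ones. Among called changes this befell Eif1, at 6 h against both 0 h and 1 h. Eef2 at 1 h ranged from -0.01 (without array 3 of 1 h) to 0.53 over the fits without 1 array, and Eif1 at 6 h was 0.02 with quantile normalization and 0.03 in the deposited matrix. Median changes of the factors moved with the median shift to -0.27 (0.5 h), -0.23 (1 h), -0.06 (3 h), -0.06 (6 h) and 0.00 (9 h), with normexp to -0.11 (3 h), and with quantile normalization and the deposited matrix to 0.21 and 0.20 (6 h). Among changes of named factors over all alternatives, 1279 stayed on their side of the threshold, 101 fell below it, 31 passed it and 3 turned. Among counts, 186 stayed within 1.5 times the main count and 47 did not. Part of these outcomes was fixed beforehand. A required 2-fold change loses every call with a change under 1 in size, so each count above of alternatives losing such a call includes it. Adjusted P-values alone cannot lose a call. Factors not called in the main fit count as staying when still not called. At 0.5 h, the fits of 1 scan day and of the 2 time-points alone hold the same arrays. The totals therefore do not measure stability. With the replicate number as a block, 29 factors were called over time, then 2, 1, 6, 22 and 25, then 24. Whether the numbers pair the arrays was not settled. Deviations of 45 same-numbered pairs correlated at -0.26 to 0.56, with 22 pairs above 0.1. Differently numbered pairs were not summarized beside them.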
